A study of Mus musculus with 12 samples.

Results

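Hearts taken 1 day after acute myocardial infarction (AMI) were compared with hearts taken after sham surgery, gene by gene across the transcriptome. The comparison used 8 of the 12 RNA-seq libraries of the study, made from hearts of adult male C57BL/6N mice and described by the study as biological replicates, with 4 hearts in the sham group and 4 in the day 1 AMI group. In AMI mice the left anterior descending coronary artery (LAD) was tied off with a suture and not reopened. The infarction was made under isoflurane anaesthesia. Sham mice had sham surgery, and the day on which their hearts were taken is not given in the sources used here. The labels name no mutant allele and no drug for either group. Total RNA came from the whole heart, so that the infarct, the border of the infarct and the remote muscle were read as a mixture, and fewer cells of a type cannot be told apart from less RNA per cell. Because no source ties the numbers of sham and AMI hearts to shared litters or days, p-values measure the spread between these hearts. Hearts are given in the order of replicates 1 to 4.

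An infarct cuts cardiomyocytes off from oxygen and fuel. Within a day the dying muscle is known to release signals that draw in blood leukocytes, while surviving cardiomyocytes are stretched and return to a fetal programme that includes natriuretic peptides. Fibroblasts, endothelium and epicardium then begin to lay down a provisional matrix before scar is formed.

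Of 53801 genes in the files, 15306 passed the filter on low counts and were tested with edgeR's quasi-likelihood test. At a fold change of 2 or greater and a Benjamini-Hochberg adjusted p below 0.05, 1192 genes (7.79%) were higher and 456 genes (2.98%) were lower in day 1 AMI than in sham. By the adjusted p alone, 3360 genes (22.0%) were higher and 3043 genes (19.9%) were lower. "Rose" and "fell" are used below for genes past the adjusted p, and "2-fold" marks those that passed the fold change as well. The account below runs mostly by gene lists, which hold 300 of the 1648 genes that passed at 2-fold. Most of the genes that passed are thus outside every list. The split of rises and falls moved with the processing. Libraries were scaled by TMM, which allows for transcripts that fill a large share of a library, and the median log2 fold change of all genes was then -0.01. Scaled by library totals, the fold changes moved up by 0.27 in the median, and 1764 genes were higher and 217 lower by 2-fold. In limma on log2(TPM + 1), which differs in test, unit and pseudocount as well as in scaling, they moved up by 0.30, with 957 higher and 63 lower. The fit on library totals differs in scaling alone.

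Depth ran from 23253576 to 26573727 counts in sham hearts and from 25541858 to 32166517 in day 1 AMI hearts, where a count of 3 in the shallowest library is 0.129 CPM, the unit of counts scaled to library size used below. The mitochondrial genome took 17.9% to 27.4% of counts in sham and 12.1% to 15.9% in day 1 AMI. The hearts were not alike within a group. Of the 1192 genes that rose by 2-fold, day 1 AMI heart 2 was the highest of the group for 819 (68.7%) and heart 4 the lowest for 613 (51.4%). Of the 456 that fell by 2-fold, heart 2 was the lowest for 244 (53.5%) and heart 4 the highest for 205 (45.0%). Sham heart 2 stood apart in red cell transcripts, with a summed TPM of 15420 against 1737 to 3766 in the other sham hearts. Sham heart 4 stood apart in atrial transcripts, at 1621 against 216 to 511.

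**Figure D1:**
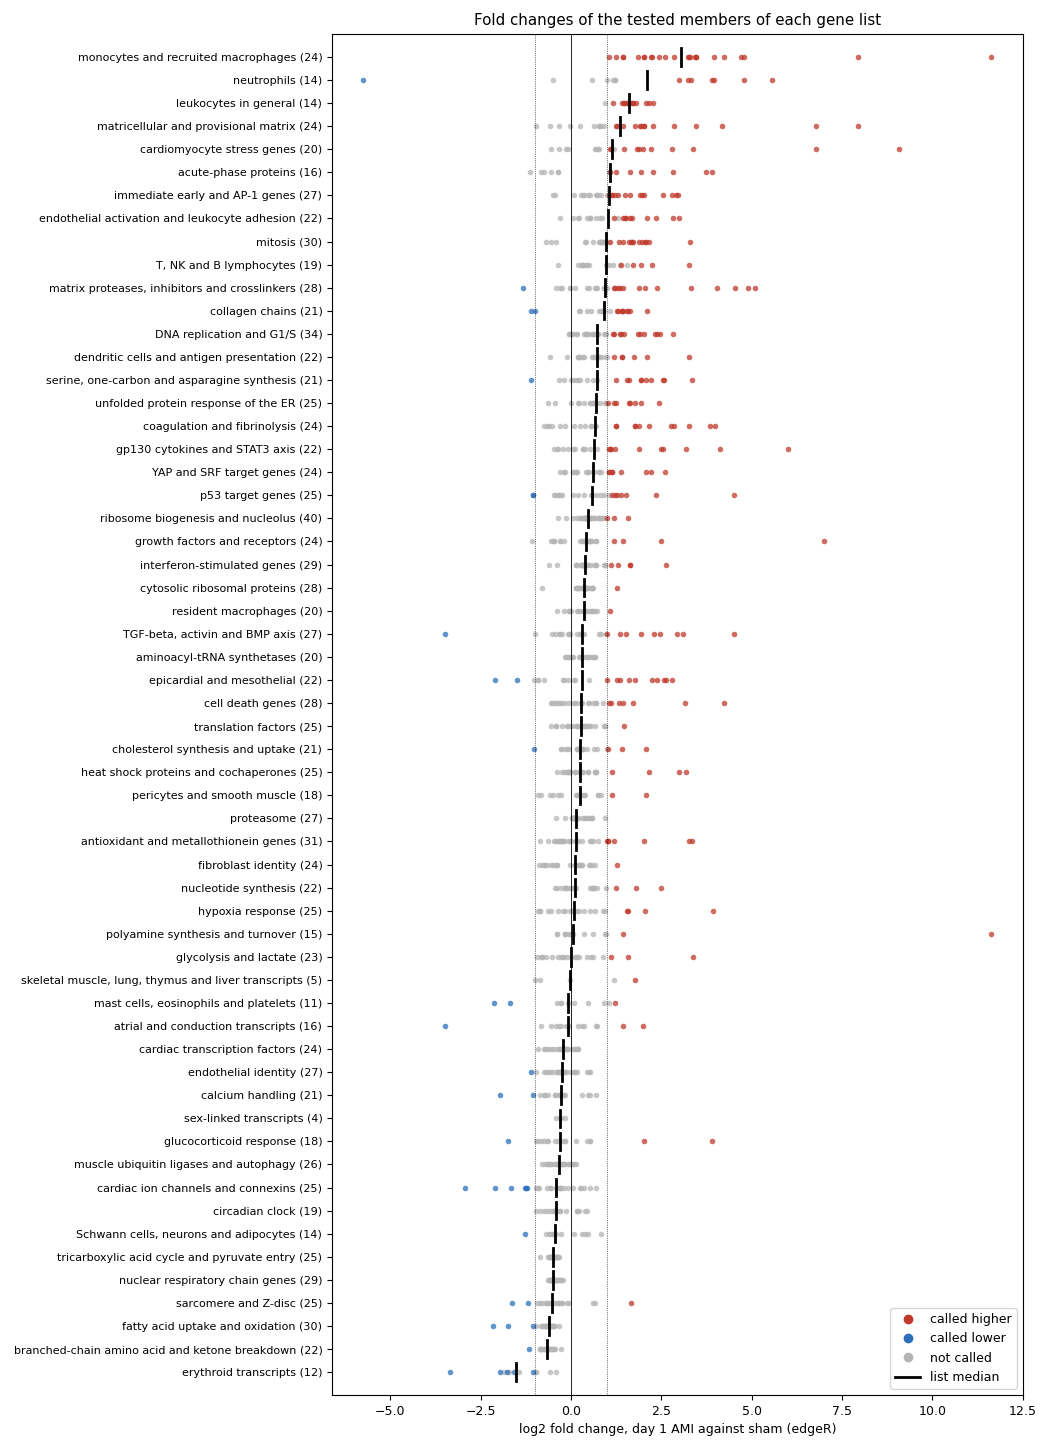
Log2 fold change (horizontal axis, edgeR, day 1 AMI against sham) of each tested member of 58 gene lists (rows, number tested in parentheses), with 4 hearts per group. Each point is a gene and black bars are list medians. Recruited macrophage, neutrophil and leukocyte lists have the highest medians, at 3.05, 2.10 and 1.62, and the erythroid, branched-chain amino acid and fatty acid lists the lowest, at -1.51, -0.67 and -0.62. Without sham heart 2 the neutrophil median was 3.21 and the erythroid median -0.45, above the fatty acid median of -0.72.

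Heart muscle genes moved in opposite directions. Genes that cardiomyocytes switch on under load rose, whereas more genes of the contractile apparatus, calcium cycling and ion channels fell than rose. Of the 20 stress genes, 11 rose by 2-fold and 0 fell, with a median log2 fold change of 1.148 against -0.01 over all genes. Nppb encodes B-type natriuretic peptide, the hormone released by stretched ventricle. Its level was 40.1, 25.9, 78.0 and 74.6 CPM in sham hearts and 679, 816, 539 and 240.4 CPM in day 1 AMI hearts. All day 1 AMI hearts lay above all sham hearts, and Nppb was 10.4-fold higher (log2 fold change 3.38 ± 0.39 SE, adjusted p = 4.1e-05). Ankrd1, a titin-binding stretch sensor that also acts in the nucleus, stood at 522, 373, 972 and 1159 CPM in sham hearts and 3956, 4484, 3215 and 2338 CPM in day 1 AMI hearts. Ankrd1 was 4.62-fold higher (log2 fold change 2.21 ± 0.32 SE, adjusted p = 0.00014), with no overlap. Its relative Ankrd2, usual in skeletal muscle, was at 0.104, 0.0821, 0.194 and 0.287 CPM in sham hearts and 24.7, 23.2, 20.4 and 7.00 CPM in day 1 AMI hearts, and was 111-fold higher (log2 fold change 6.79 ± 0.52 SE, adjusted p = 2.7e-06).

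Sprr1a, a small proline-rich protein of stressed cardiomyocytes, was nearly absent from sham hearts. It was found at 0.209, 0.0821, 0 and 0 CPM in sham hearts and 43.9, 44.0, 51.7 and 22.5 CPM in day 1 AMI hearts. The sham libraries held 6 counts in all against 4921 in day 1 AMI, a ratio of 572 after scaling (95% counting interval, 263 to 1559). Flnc, the muscle filamin that holds damaged Z-discs, stood at 448, 486, 495 and 362 CPM in sham hearts and 1660, 2288, 1776 and 889 CPM in day 1 AMI hearts and was 3.69-fold higher (log2 fold change 1.88 ± 0.22 SE, adjusted p = 4.2e-05). Fhl1, a LIM protein of the sarcomere, read 172, 158, 120.0 and 117 CPM in sham hearts and 1135, 1226, 1051 and 493 CPM in day 1 AMI hearts and was 6.89-fold higher (log2 fold change 2.79 ± 0.25 SE, adjusted p = 8e-06). Nppa, the atrial peptide, was 3.98-fold higher (log2 fold change 1.99 ± 0.54 SE, adjusted p = 0.0092), but the groups overlapped at 55.6, 113, 155 and 555 CPM in sham hearts and 1122, 1098, 879 and 402 CPM in day 1 AMI hearts. Sham heart 4 was the highest sham heart for Nppa and for the summed TPM of the atrial list. Day 1 AMI heart 4 was the lowest of its group for all 11 stress genes that rose by 2-fold, against 51.4% of all such genes.

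Several of these promoters share a short sequence. M-CAT, the site of TEAD factors in muscle genes (CATTCC, both strands), was searched in the 250 bases before the start of each gene in the RefSeq promoters of GRCm38.p6. It was present in 9 of the 17 stress genes with a promoter entry (52.9%) and in 13.1% of the 11252 tested genes with one. Among YAP and SRF target genes, 8 of 18 held it (44.4%), with Ankrd1 in both lists. Of the 9 stress genes with the motif 5 rose by 2-fold, against 11 of the 20 in the list. Of the 8 YAP and SRF targets with it 2 did so, against 8 of the 24 in that list. A link of the motif to the rises was not tested. A match is a description of letters and not of binding. The 150 bases before the start of the stress genes Nppb (chr4:147985750-147985899, plus strand), Ankrd1 (chr19:36119845-36119994, minus strand) and Flnc (chr6:29433106-29433255, plus strand) are shown because they carry the motif, in capitals on either strand.
Nppb: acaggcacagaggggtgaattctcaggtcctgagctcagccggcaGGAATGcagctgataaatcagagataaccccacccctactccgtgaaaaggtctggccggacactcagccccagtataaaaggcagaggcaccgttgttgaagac
Ankrd1: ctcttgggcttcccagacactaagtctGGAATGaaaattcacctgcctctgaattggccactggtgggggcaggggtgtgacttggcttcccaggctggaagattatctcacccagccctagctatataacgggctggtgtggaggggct
Flnc: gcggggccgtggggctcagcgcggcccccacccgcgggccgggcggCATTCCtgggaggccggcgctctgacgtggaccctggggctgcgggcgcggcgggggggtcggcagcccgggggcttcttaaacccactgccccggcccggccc

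Among 25 sarcomere and Z-disc genes, 16 fell and 3 rose by the adjusted p, 2 and 1 of them by 2-fold, with a median of -0.53. On library totals 9 fell and on log2(TPM + 1) 8. Myh6, the main myosin motor of the adult mouse ventricle, was 1.83-fold lower (log2 fold change -0.87 ± 0.14 SE, adjusted p = 0.0003). Its level was 37370, 32760, 36970 and 37290 CPM in sham hearts and 21240, 14760, 19850 and 23030 CPM in day 1 AMI hearts, with no overlap. Myh7b, a slow myosin of muscle, stood at 66.7, 115, 93.4 and 90.1 CPM in sham hearts and 27.4, 14.47, 44.6 and 30.9 CPM in day 1 AMI hearts and was 3.11-fold lower (log2 fold change -1.64 ± 0.28 SE, adjusted p = 0.00048). Myom2, an M-band protein, was 2.29-fold lower (log2 fold change -1.20 ± 0.23 SE, adjusted p = 0.00096) at 1089, 842, 1490 and 2147 CPM in sham hearts and 597, 571, 626 and 633 CPM in day 1 AMI hearts. Its log2 fold change was short of 2-fold without sham heart 4 (-0.91), on library totals (-0.92) and on log2(TPM + 1) (-0.75). Ttn, the giant spring of the sarcomere, was 1.34-fold lower (log2 fold change -0.42 ± 0.13 SE, adjusted p = 0.018). Against the list, the actin-organising Z-disc gene Synpo2l was 3.13-fold higher (log2 fold change 1.65 ± 0.19 SE, adjusted p = 4e-05), at 163, 148, 195 and 179.9 CPM in sham hearts and 573, 723, 533 and 318 CPM in day 1 AMI hearts.

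Calcium handling genes fell on the TMM scale, and fewer passed on the others. Atp2a2, the SERCA pump that refills the sarcoplasmic reticulum, was 1.55-fold lower (log2 fold change -0.64 ± 0.14 SE, adjusted p = 0.0026) and its groups did not overlap. Hrc, a calcium-binding protein of the reticulum, was 2.09-fold lower (log2 fold change -1.06 ± 0.14 SE, adjusted p = 9.8e-05) at 1280, 1160, 1137 and 1105 CPM in sham hearts and 545, 414, 609 and 675 CPM in day 1 AMI hearts. Its log2 fold change was -0.94 without day 1 AMI heart 2, -0.79 on library totals and -0.76 on log2(TPM + 1). Cacng6, a calcium channel subunit, was 3.91-fold lower (log2 fold change -1.97 ± 0.35 SE, adjusted p = 0.00063). Ryr2, the release channel, was 1.26-fold lower (log2 fold change -0.34 ± 0.10 SE, adjusted p = 0.019) but its groups overlapped, and on log2(TPM + 1) its log2 fold change turned to 0.02. Over the 21 genes 13 fell and 3 rose, against 6 and 3 on library totals and 5 and 3 on log2(TPM + 1). Their median of -0.29 was -0.02 on library totals and 0.02 on log2(TPM + 1).

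The falls among channels included subunits of the fast transient outward potassium current. Kcnip2, the subunit that current needs, stood at 242, 268, 308 and 279.8 CPM in sham hearts and 58.6, 32.8, 86.8 and 78.6 CPM in day 1 AMI hearts, with no overlap, and was 4.28-fold lower (log2 fold change -2.10 ± 0.23 SE, adjusted p = 3.2e-05). Kcnd2, its pore, was 2.33-fold lower (log2 fold change -1.22 ± 0.19 SE, adjusted p = 0.00023) at 33.9, 24.7, 26.7 and 29.4 CPM in sham hearts and 12.4, 8.44, 11.6 and 16.8 CPM in day 1 AMI hearts. On library totals the log2 fold change of Kcnd2 was -0.94, and on log2(TPM + 1) it was -0.75. Kcnv2, a silent potassium channel subunit, was 7.72-fold lower (log2 fold change -2.95 ± 0.32 SE, adjusted p = 2.6e-05) at 30.1, 28.3, 14.7 and 17.2 CPM in sham hearts and 2.91, 1.85, 2.29 and 4.63 CPM in day 1 AMI hearts. Scn4b, a sodium channel subunit, was 3.15-fold lower (log2 fold change -1.66 ± 0.28 SE, adjusted p = 0.00049). Of 25 channel and connexin genes, 15 fell, 6 of them by 2-fold, and 3 rose. On library totals 9 fell, 4 of them by 2-fold, and 5 rose, and on log2(TPM + 1) 9 fell, 3 of them by 2-fold, and 5 rose. Cardiac transcription factors moved little. None of 24 passed 2-fold, and 11 fell by the adjusted p, a count that was 7 without day 1 AMI heart 2. On library totals 5 fell and 6 rose, and on log2(TPM + 1) 1 fell and 6 rose, so that these factors had no direction that held across scalings. Gata4 (log2 fold change 0.16 ± 0.10 SE) and Hand2 (0.12 ± 0.12 SE) did not pass the test. The median of these factors was -0.21, and turned to 0.06 on library totals and 0.15 on log2(TPM + 1).

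**Figure D2:**
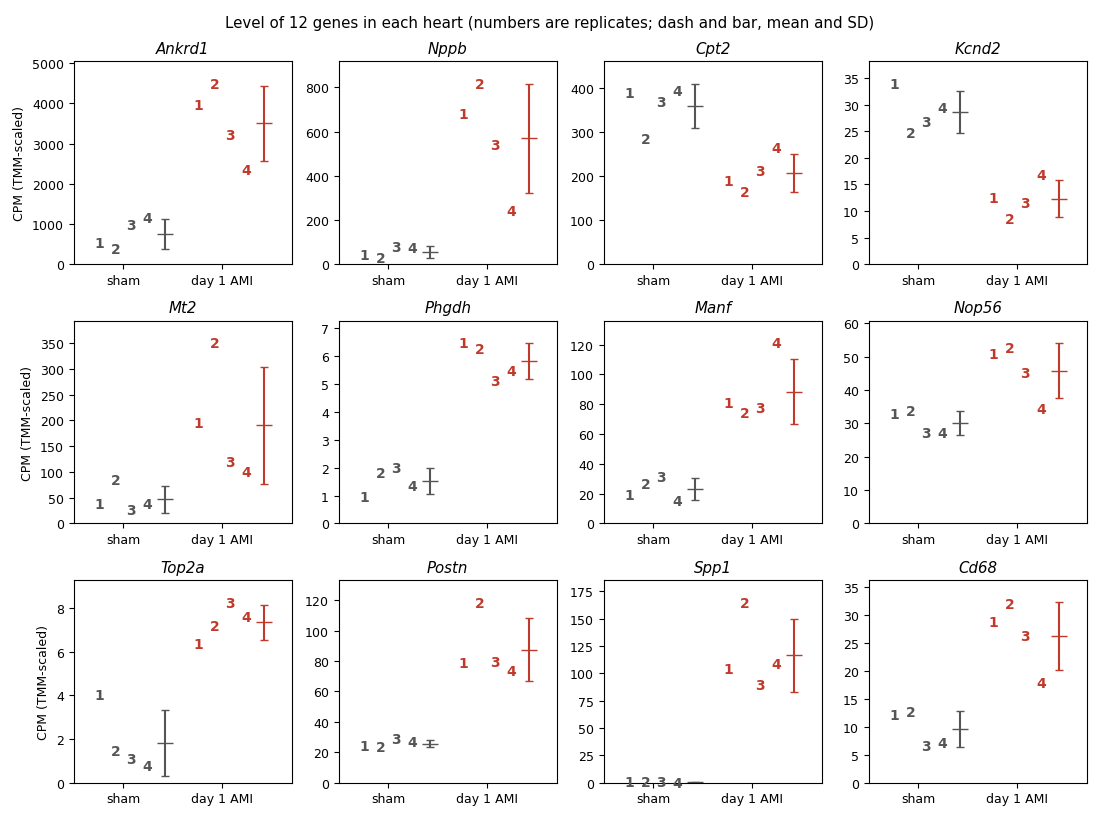
TMM-scaled CPM (vertical axes, each from 0) of 12 genes in each sham and day 1 AMI heart. Numbers are replicates, dashes are means and bars are SD (n = 4 hearts). For Ankrd1, Nppb, Spp1 and Postn every day 1 AMI heart lies above every sham heart, for Cpt2 and Kcnd2 below, and for Manf day 1 AMI heart 4 is the highest, at 121 CPM, where for Ankrd1 and Nppb it is the lowest of its group.

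Genes of mitochondrial fuel use fell as a whole on the TMM scale, by small amounts. All 30 of 30 genes of fatty acid uptake and oxidation fell by the adjusted p, as did 25 of 25 of the tricarboxylic acid cycle, 22 of 22 of branched-chain amino acid and ketone breakdown, and 26 of 29 nuclear respiratory chain genes. The median log2 fold changes were -0.62, -0.49, -0.67 and -0.49. The direction of the medians held on library totals (-0.34, -0.21, -0.40 and -0.22) and on log2(TPM + 1) (-0.30, -0.20, -0.36 and -0.17). The counts that fell were smaller there, at 20, 8, 15 and 10 on library totals and 14, 4, 13 and 5 on log2(TPM + 1). No gene of the 4 lists rose in any of these fits.

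Cd36, the fatty acid importer of cardiomyocytes, stood at 2021, 1468, 1528 and 1607 CPM in sham hearts and 932, 1145, 986 and 1256 CPM in day 1 AMI hearts and was 1.53-fold lower (log2 fold change -0.62 ± 0.12 SE, adjusted p = 0.0012). Cpt2, which hands acyl groups to the matrix for oxidation, was 1.73-fold lower (log2 fold change -0.79 ± 0.15 SE, adjusted p = 0.00086) at 387, 284, 368 and 393 CPM in sham hearts and 188, 164, 211 and 264 CPM in day 1 AMI hearts. Both genes had no overlap between groups. Mlycd, which removes the brake on fatty acid import, was 2.08-fold lower (log2 fold change -1.05 ± 0.16 SE, adjusted p = 0.00018) at 141, 153, 199 and 184 CPM in sham hearts and 73.7, 71.3, 75.7 and 105 CPM in day 1 AMI hearts. Its log2 fold change was -0.97 without sham heart 3, -0.99 without day 1 AMI heart 2, -0.79 on library totals and -0.73 on log2(TPM + 1). Ucp3, an uncoupling protein of muscle mitochondria, read 81.3, 64.5, 192 and 169 CPM in sham hearts and 36.7, 14.8, 23.5 and 38.2 CPM in day 1 AMI hearts and was 4.48-fold lower (log2 fold change -2.16 ± 0.46 SE, adjusted p = 0.0022). Sham hearts 3 and 4 were high for Ucp3. The same sham hearts were high for Pdk4, the kinase that shuts pyruvate out of the cycle in fasted muscle, at 490.0, 302, 1508 and 1110 CPM in sham hearts and 351, 308, 141 and 222 CPM in day 1 AMI hearts. Pdk4 was 3.34-fold lower (log2 fold change -1.74 ± 0.44 SE, adjusted p = 0.0059) with overlapping groups, and on log2(TPM + 1) its log2 fold change was -0.89, where it did not pass the test.

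Cs, the first enzyme of the cycle, was 1.35-fold lower (log2 fold change -0.44 ± 0.10 SE, adjusted p = 0.0026) and Ndufs1, a core subunit of complex I, was 1.504-fold lower (log2 fold change -0.59 ± 0.11 SE, adjusted p = 0.00067). Bckdha, of the branched-chain ketoacid dehydrogenase, stood at 353, 386, 400.3 and 467 CPM in sham hearts and 199, 203, 237 and 253 CPM in day 1 AMI hearts and was 1.80-fold lower (log2 fold change -0.85 ± 0.13 SE, adjusted p = 0.00026). Oxct1, which lets the heart burn ketone bodies, was 1.58-fold lower (log2 fold change -0.66 ± 0.09 SE, adjusted p = 0.00014). Per unit of transcript the fall was uneven across hearts and lists. The summed TPM of the fatty acid genes was 20920, 22360, 25450 and 24180 in sham hearts and 17310, 17490, 18770 and 22340 in day 1 AMI hearts. Day 1 AMI heart 4 thus lay within the sham range, and the other 3 hearts below it. Heart 4 was also within it for the tricarboxylic acid cycle genes, at 16500 against 15670 to 17460 in sham. For the nuclear respiratory chain genes all day 1 AMI hearts were, at 55180, 55150, 56510 and 64660 against 54290 to 69480 in sham. For branched-chain amino acid and ketone genes all lay below it, the highest at 2451 against 2560 to 2746 in sham.

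Glycolysis genes moved in both directions. Of 23 genes 7 rose (30.4%) and 10 fell (43.5%), against 22.0% and 19.9% of all genes. On library totals 12 of them rose and 5 fell. The list median of -0.01 was 0.26 on library totals and 0.28 on log2(TPM + 1). The genes that rose by 2-fold were transport and control steps. Slc16a3, the lactate exporter MCT4, stood at 3.02, 5.17, 2.13 and 1.96 CPM in sham hearts and 40.0, 56.3, 18.8 and 15.3 CPM in day 1 AMI hearts. It was 10.47-fold higher (log2 fold change 3.39 ± 0.43 SE, adjusted p = 7e-05), with hearts 1 and 2 of the day 1 AMI group well above hearts 3 and 4. Slc2a1, the glucose carrier GLUT1, was 3.01-fold higher (log2 fold change 1.59 ± 0.26 SE, adjusted p = 0.00032) at 18.4, 27.4, 18.6 and 15.7 CPM in sham hearts and 72.3, 89.7, 44.0 and 35.0 CPM in day 1 AMI hearts, with the same pair of hearts on top. Pfkp, an isoform of phosphofructokinase, was 2.17-fold higher (log2 fold change 1.12 ± 0.17 SE, adjusted p = 0.00024), and without day 1 AMI heart 2 its log2 fold change was 0.95. Hk1 was 1.37-fold higher (log2 fold change 0.45 ± 0.12 SE, adjusted p = 0.0067) with overlap, and Hk2 did not pass the test (log2 fold change 0.10 ± 0.10 SE).

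Serine and one-carbon units are building blocks of nucleotides and of glutathione. In serine, one-carbon and asparagine synthesis, 10 of 21 genes rose by 2-fold and 1 fell by 2-fold, with a median of 0.72. The gene that fell was Cth, of cysteine synthesis (log2 fold change -1.11 ± 0.31 SE). Phgdh and Psat1 are the first steps from glycolysis to serine. Phgdh stood at 0.939, 1.81, 1.99 and 1.34 CPM in sham hearts and 6.46, 6.27, 5.10 and 5.49 CPM in day 1 AMI hearts, with no overlap, and was 3.81-fold higher (log2 fold change 1.93 ± 0.25 SE, adjusted p = 7.5e-05). Psat1 read 2.45, 2.71, 3.10 and 4.30 CPM in sham hearts and 19.96, 23.4, 19.3 and 12.7 CPM in day 1 AMI hearts and was 5.99-fold higher (log2 fold change 2.58 ± 0.20 SE, adjusted p = 3.6e-06). The mitochondrial folate enzymes Mthfd2 and Mthfd1l, low in adult tissue, were 4.67-fold higher (log2 fold change 2.22 ± 0.31 SE, adjusted p = 0.00013) and 5.88-fold higher (log2 fold change 2.56 ± 0.32 SE, adjusted p = 6.7e-05). Slc7a11, the cystine importer, was 10.2-fold higher (log2 fold change 3.35 ± 0.55 SE, adjusted p = 0.00037), from 8 counts over the sham libraries.

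Other biosynthesis had fewer genes past 2-fold. By the adjusted p 10 of 22 nucleotide genes rose (45.5%) and 3 fell (13.6%). Of 21 cholesterol genes 8 rose (38.1%) and 1 fell (4.76%). The shares of all genes were 22.0% and 19.9%. In nucleotide synthesis 3 of 22 genes rose by 2-fold, led by Uck2, a uridine salvage kinase, at 50.3, 56.2, 50.9 and 37.3 CPM in sham hearts and 305, 377, 258 and 159.7 CPM in day 1 AMI hearts. Uck2 was 5.65-fold higher (log2 fold change 2.50 ± 0.23 SE, adjusted p = 8.2e-06). Tyms and Ctps, the thymidylate and CTP synthases, were 3.45-fold higher (log2 fold change 1.79 ± 0.22 SE, adjusted p = 5.6e-05) and 2.39-fold higher (log2 fold change 1.25 ± 0.12 SE, adjusted p = 8.8e-06), while Ppat, the entry to purine synthesis, did not pass the test (log2 fold change -0.14 ± 0.16 SE). In cholesterol synthesis and uptake 3 of 21 rose and 1 fell by 2-fold. Sqle, an epoxidase of the pathway, was 4.21-fold higher (log2 fold change 2.07 ± 0.30 SE, adjusted p = 0.00015). Msmo1 was 2.02-fold higher (log2 fold change 1.01 ± 0.15 SE, adjusted p = 0.00015), a call lost without sham heart 4 (0.91) or day 1 AMI heart 3 (0.92). Fdft1, squalene synthase, went the other way and was 2.03-fold lower (log2 fold change -1.02 ± 0.14 SE, adjusted p = 0.00012), a call lost without sham heart 4 or day 1 AMI heart 2 (-0.91 in each), on library totals (-0.75) or on log2(TPM + 1) (-0.73).

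Polyamine genes gave a median of 0.05 over 15 genes, with 2 higher by 2-fold, and the sign of that median changed when sham heart 1, 3 or 4 or day 1 AMI heart 2 or 4 was left out. By the adjusted p 6 rose (40%) and 1 fell (6.67%), against 22.0% and 19.9% of all genes. Odc1, the rate-limiting step, was 1.93-fold higher (log2 fold change 0.94 ± 0.13 SE, adjusted p = 8.9e-05) and Srm, spermidine synthase, was 2.72-fold higher (log2 fold change 1.44 ± 0.16 SE, adjusted p = 3.2e-05). Sat1, which returns polyamines, was 1.28-fold higher (log2 fold change 0.35 ± 0.14 SE, adjusted p = 0.049). Arg1, the arginase that supplies ornithine and a gene of wound macrophages, stood at 0, 0, 0.0485 and 0 CPM in sham hearts and 66.0, 88.8, 19.9 and 35.6 CPM in day 1 AMI hearts. A single sham count faced 6439 counts in day 1 AMI, a ratio of 4490 after scaling (95% counting interval, 806 to 177400).

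The machinery that makes ribosomes rose broadly, mostly by less than 2-fold. Of 40 genes of ribosome biogenesis and the nucleolus, 34 rose by the adjusted p and 1 fell, with 3 past 2-fold and a median of 0.47. Rrp12, needed for export of ribosomal subunits, stood at 26.4, 25.2, 27.6 and 22.6 CPM in sham hearts and 81.3, 97.0, 76.3 and 51.5 CPM in day 1 AMI hearts and was 3.01-fold higher (log2 fold change 1.59 ± 0.15 SE, adjusted p = 8.5e-06). Nop58 of the box C/D particles was 1.89-fold higher (log2 fold change 0.92 ± 0.12 SE, adjusted p = 9.9e-05), Nhp2 of the box H/ACA particles was 2.26-fold higher (log2 fold change 1.18 ± 0.12 SE, adjusted p = 2.3e-05), and nucleolin (Ncl) was 1.34-fold higher (log2 fold change 0.42 ± 0.08 SE, adjusted p = 0.0013). Nop16 was 2.01-fold higher (log2 fold change 1.01 ± 0.10 SE, adjusted p = 2.1e-05). The call for Nop16 was lost without sham heart 1 or 4 (0.97 in each) or day 1 AMI heart 2 (0.92). Of 28 cytosolic ribosomal protein genes, 17 rose and 1 fell. Their summed TPM was 14700, 20020, 18660 and 17120 in sham hearts and 28960, 29280, 27310 and 25860 in day 1 AMI hearts, with no overlap. Rpl3 stood out at 140.2, 166, 145 and 159 CPM in sham hearts and 401, 420.1, 362 and 301 CPM in day 1 AMI hearts, and was 2.43-fold higher (log2 fold change 1.28 ± 0.10 SE, adjusted p = 3.9e-06). Ribosomal protein genes have many processed pseudogenes, so that reads can be split between copies.

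Translation factors rose in 12 of 25 genes (48%) and fell in 4 (16%), against 22.0% and 19.9% of all genes. Eif1a, a scanning factor, was 2.77-fold higher (log2 fold change 1.47 ± 0.14 SE, adjusted p = 1.2e-05), while Eif1, its partner, was 1.32-fold lower (log2 fold change -0.41 ± 0.08 SE, adjusted p = 0.0017). Of 20 aminoacyl-tRNA synthetases, 13 rose, none by 2-fold, with Aars 1.35-fold higher (log2 fold change 0.43 ± 0.10 SE, adjusted p = 0.004) and Mars without a call (log2 fold change 0.06 ± 0.08 SE).

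The unfolded protein response of the endoplasmic reticulum (ER) rose, and its order of hearts differed from that of the stress genes. This response raises chaperones and export factors when unfolded proteins build up in the ER. Of 25 genes, 8 rose by 2-fold, 19 by the adjusted p and 1 fell, with a median of 0.69. Sdf2l1, an ER luminal cofactor, stood at 4.02, 5.71, 6.69 and 3.44 CPM in sham hearts and 26.2, 22.5, 24.7 and 33.7 CPM in day 1 AMI hearts and was 5.38-fold higher (log2 fold change 2.43 ± 0.28 SE, adjusted p = 4.3e-05). Manf, a protein that ER stress releases, read 19.0, 26.6, 31.1 and 15.3 CPM in sham hearts and 81.1, 74.0, 77.5 and 121 CPM in day 1 AMI hearts and was 3.84-fold higher (log2 fold change 1.94 ± 0.26 SE, adjusted p = 9.5e-05). Creld2, a disulfide isomerase, was 3.42-fold higher (log2 fold change 1.77 ± 0.26 SE, adjusted p = 0.00016) at 9.02, 12.9, 10.9 and 7.60 CPM in sham hearts and 31.2, 34.7, 29.0 and 43.2 CPM in day 1 AMI hearts. None of these 3 genes, which were named for their large changes, had overlapping groups. Hspa5 (BiP), the chief ER chaperone, was 1.91-fold higher (log2 fold change 0.94 ± 0.18 SE, adjusted p = 0.001) at 516, 540.4, 653 and 413 CPM in sham hearts and 923, 864, 953 and 1319 CPM in day 1 AMI hearts. Ddit3 (CHOP), the death-linked factor of the response, was 1.43-fold higher (log2 fold change 0.52 ± 0.18 SE, adjusted p = 0.03) with overlap. Herpud1, of ER-associated degradation, was 1.56-fold lower (log2 fold change -0.64 ± 0.17 SE, adjusted p = 0.0083). Day 1 AMI heart 4 was the highest of its group for 6 of the 8 genes that rose by 2-fold, where it was the lowest for all 14 immediate early and AP-1 genes and all 11 stress genes that did so. Among all genes that rose by 2-fold, heart 4 was the highest for 6.71% and the lowest for 51.4%.

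The ER stress response element, searched on both strands, was present in the 250 bases before the start of 7 of the 23 genes of the response with a promoter entry (30.4%) and of 0.151% of the 11252 tested genes with one. Of the 7 genes, 6 rose and 2 did so by 2-fold, against 19 and 8 of all 25 genes of the response. A link of the element to the rise was not tested. The element is shown in capitals in the 150 bases before the start of Hspa5 (chr2:34771940-34772089), Pdia6 (chr12:17266439-17266588) and Creld2 (chr15:88819496-88819645), all on the plus strand of GRCm38.p6. In Creld2 it lies on the other strand. Pdia6, an ER disulfide isomerase, was 2.29-fold higher (log2 fold change 1.20 ± 0.17 SE, adjusted p = 0.00016).
Hspa5: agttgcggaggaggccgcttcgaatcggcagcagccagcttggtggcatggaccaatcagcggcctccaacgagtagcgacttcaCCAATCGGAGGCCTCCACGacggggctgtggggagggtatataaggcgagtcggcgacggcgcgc
Pdia6: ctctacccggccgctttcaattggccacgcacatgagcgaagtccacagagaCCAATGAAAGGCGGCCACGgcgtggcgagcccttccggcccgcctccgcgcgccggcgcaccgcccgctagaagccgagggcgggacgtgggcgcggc
Creld2: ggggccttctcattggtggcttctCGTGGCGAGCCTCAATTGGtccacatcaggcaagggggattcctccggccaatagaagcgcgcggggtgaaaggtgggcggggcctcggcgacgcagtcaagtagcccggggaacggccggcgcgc

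Cytosolic chaperones rose in part. Of 25 heat shock proteins and cochaperones 14 rose, 4 of them by 2-fold, and 1 fell. Hspb1 (HSP25), which binds damaged filaments, stood at 214, 199.8, 314 and 207 CPM in sham hearts and 1016, 1376, 1104 and 676 CPM in day 1 AMI hearts and was 4.47-fold higher (log2 fold change 2.16 ± 0.20 SE, adjusted p = 8.2e-06). Hsp90aa1, the inducible HSP90, was 2.18-fold higher (log2 fold change 1.12 ± 0.15 SE, adjusted p = 0.0001), and without sham heart 4 its log2 fold change was 0.99. The inducible HSP70 genes split the day 1 AMI group, with Hspa1a at 2.97, 2.88, 0.970 and 1.72 CPM in sham hearts and 28.8, 31.7, 4.22 and 3.81 CPM in day 1 AMI hearts and Hspa1b at 2.24, 2.59, 1.65 and 1.53 CPM in sham hearts and 30.1, 32.6, 5.53 and 5.58 CPM in day 1 AMI hearts. Hearts 1 and 2 lay far above hearts 3 and 4 for both. A heat shock element was present in 3 of 19 promoters of the list (15.8%, against 0.462% of tested genes), and none of those 3 genes, Dnajb6, Hspd1 and Hspe1, rose. Hspa1a was 7.97-fold higher (log2 fold change 3.00 ± 0.64 SE, adjusted p = 0.0021) and Hspa1b was 9.15-fold higher (log2 fold change 3.19 ± 0.57 SE, adjusted p = 0.00064), and reads of these near-identical genes may be divided between them. Summed TPM of the chaperone list was 7689, 7983, 8614 and 7822 in sham and 14970, 16690, 15470 and 12300 in day 1 AMI, with no overlap. Proteasome genes rose in 7 of 27 (25.9%) and fell in 1, near the 22.0% of all genes that rose. On library totals 23 of them rose, as did 6289 of the 15306 genes tested. Psmb8, an immunoproteasome subunit, was 1.94-fold higher (log2 fold change 0.95 ± 0.18 SE, adjusted p = 0.00097), and the constitutive Psma1 was not called (log2 fold change 0.13 ± 0.08 SE). Of 26 muscle ubiquitin ligase and autophagy genes 14 fell and none rose. The atrophy ligases Fbxo32 and Trim63 were 1.55-fold lower (log2 fold change -0.64 ± 0.22 SE, adjusted p = 0.033) and 1.28-fold lower (log2 fold change -0.35 ± 0.12 SE, adjusted p = 0.029), each with overlap. On library totals 6 of the 26 rose and 3 fell, and the list median of -0.34 turned to 0.02 on log2(TPM + 1).

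**Figure D3:**
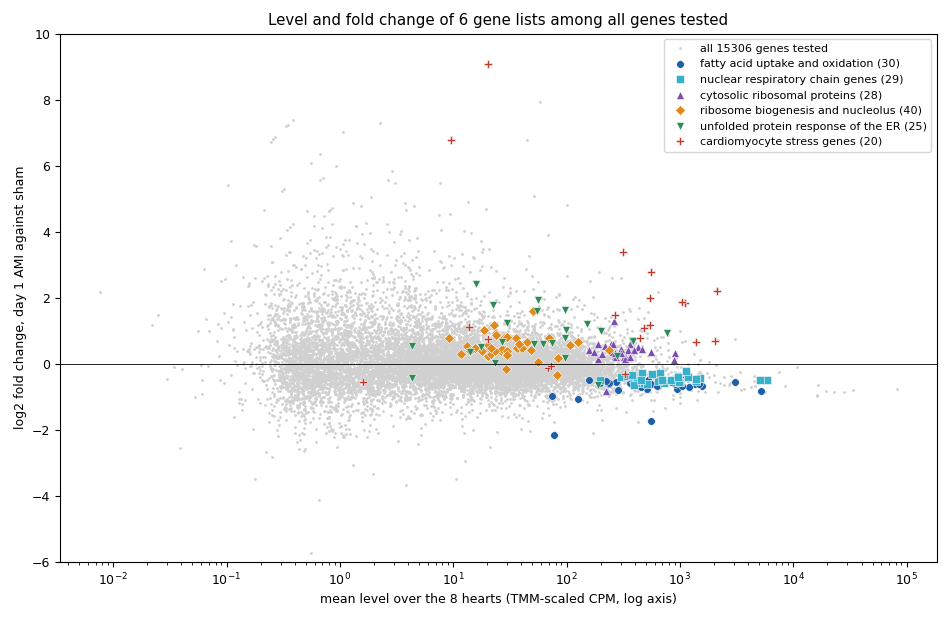
Log2 fold change (vertical axis) against mean level over the 8 hearts (TMM-scaled CPM, log axis) for all 15306 genes tested in grey and 6 gene lists in colour, with 4 hearts per group. 3 genes lie beyond the vertical axis and genes at 0 in all 8 hearts are not drawn. Fatty acid and respiratory chain genes form a band just below 0, ribosomal protein and ribosome biogenesis genes a band just above it, and stress genes reach 9.07.

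Signalling genes of acute stress were high a day after ligation. Of 27 immediate early and AP-1 genes, 14 rose by 2-fold, 19 rose by the adjusted p and 2 fell, with a median of 1.05. Fos and Fosl1 are subunits of AP-1. Fos stood at 1.77, 5.87, 1.36 and 1.24 CPM in sham hearts and 9.75, 14.7, 8.31 and 6.40 CPM in day 1 AMI hearts and was 3.75-fold higher (log2 fold change 1.91 ± 0.42 SE, adjusted p = 0.0025), with sham heart 2 the highest sham heart. Fosl1 read 0.835, 1.07, 1.07 and 0.861 CPM in sham hearts and 9.18, 10.9, 5.72 and 3.25 CPM in day 1 AMI hearts and was 7.51-fold higher (log2 fold change 2.91 ± 0.34 SE, adjusted p = 4.4e-05). Atf3, a repressor induced by many stresses, was 7.84-fold higher (log2 fold change 2.97 ± 0.37 SE, adjusted p = 6.2e-05) at 2.71, 4.15, 1.89 and 2.10 CPM in sham hearts and 23.9, 34.3, 17.4 and 10.4 CPM in day 1 AMI hearts. The zinc finger factors Egr2 and Egr3 were 6.91-fold higher (log2 fold change 2.79 ± 0.45 SE, adjusted p = 0.0003) and 5.83-fold higher (log2 fold change 2.54 ± 0.42 SE, adjusted p = 0.00037). For all 5 of these genes every day 1 AMI heart lay above every sham heart, with heart 2 the highest and heart 4 the lowest of the group. Atf3, Egr2 and Egr3 were named for their large changes, so the lack of overlap is a description and adds no support. The share of all genes without overlap is not given here.

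Oxygen-related genes moved one by one. Among 25 genes of the hypoxia response 4 rose by 2-fold. By the adjusted p 7 rose (28%) and 4 fell (16%), against 22.0% and 19.9% of all genes. The median of the 25 genes was 0.09. The hypoxia response element ACGTGC was present in 11 of the 19 with a promoter entry (57.9%), against 7.86% of tested genes, and 2 of these 11 rose by 2-fold. Car9, the hypoxia-induced carbonic anhydrase, stood at 0.157, 0.287, 0.145 and 0.143 CPM in sham hearts and 4.86, 4.45, 1.67 and 0.757 CPM in day 1 AMI hearts and was 15.3-fold higher (log2 fold change 3.93 ± 0.66 SE, adjusted p = 0.00044). Lox, a collagen crosslinker, was 4.16-fold higher (log2 fold change 2.06 ± 0.32 SE, adjusted p = 0.00025), and the other two that rose by 2-fold were Slc2a1 and Pgf, placental growth factor (log2 fold change 1.54 ± 0.38 SE). Vegfa and Hif1a, the vascular growth factor and the hypoxia sensor itself, did not pass the test (log2 fold changes -0.16 ± 0.18 SE and 0.17 ± 0.12 SE).

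Antioxidant genes gave a median of 0.12 over 31 genes. By the adjusted p 10 rose (32.3%) and 7 fell (22.6%), against 22.0% and 19.9% of all genes. By 2-fold 7 were higher, a count of 4 when sham heart 3 or 4 or day 1 AMI heart 2 was left out. The median turned negative without sham heart 3. Hmox1, which breaks down haem, stood at 9.55, 11.3, 5.97 and 7.99 CPM in sham hearts and 94.0, 118, 53.4 and 69.7 CPM in day 1 AMI hearts and was 9.60-fold higher (log2 fold change 3.26 ± 0.30 SE, adjusted p = 8.2e-06). Mt2, a metallothionein that binds zinc, read 38.03, 85.2, 26.6 and 38.5 CPM in sham hearts and 194, 349.7, 118 and 100.5 CPM in day 1 AMI hearts and was 4.04-fold higher (log2 fold change 2.02 ± 0.46 SE, adjusted p = 0.0033). Its neighbour Mt1 was not called (log2 fold change 0.55 ± 0.27 SE, adjusted p = 0.12). Srxn1, which repairs oxidised peroxiredoxins, was 2.30-fold higher (log2 fold change 1.20 ± 0.13 SE, adjusted p = 2.7e-05). Day 1 AMI heart 2 was the highest of its group for all 7 genes that rose by 2-fold, as it was for 68.7% of all such genes. The metal response element was present in 8 of 25 promoters of the list, against 33.7% of those of all tested genes.

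Of 25 p53 target genes 7 rose and 2 fell by 2-fold, the latter being Sesn1 and Gadd45a (log2 fold changes -1.05 ± 0.17 SE and -1.06 ± 0.25 SE). Gdf15, a stress hormone, stood at 0.678, 0.698, 0.533 and 0.574 CPM in sham hearts and 25.1, 18.4, 10.1 and 4.19 CPM in day 1 AMI hearts, and was 22.98-fold higher (log2 fold change 4.52 ± 0.53 SE, adjusted p = 4.2e-05). Pmaip1 (NOXA), a BH3-only killer, was 5.10-fold higher (log2 fold change 2.35 ± 0.51 SE, adjusted p = 0.0024). Gadd45g and Plk3 were 2.90-fold higher (log2 fold change 1.53 ± 0.27 SE, adjusted p = 0.00061) and 2.60-fold higher (log2 fold change 1.38 ± 0.30 SE, adjusted p = 0.0025). Cdkn1a (p21) did not pass the test (log2 fold change 1.05 ± 0.47 SE), at 48.2, 56.5, 18.3 and 11.7 CPM in sham hearts and 65.0, 127, 46.8 and 40.7 CPM in day 1 AMI hearts. Sham hearts 1 and 2 lay above day 1 AMI hearts 3 and 4 for Cdkn1a. It passed at 2-fold without sham heart 2 (1.42, adjusted p = 0.033), on library totals (1.32), on log2(TPM + 1) (1.46), with a replicate block (1.153) and with no filter (1.06). Among 28 cell death genes 7 rose by 2-fold (25%, against 7.79% of all genes). By the adjusted p 13 rose (46.4%) and 5 fell (17.9%), against 22.0% and 19.9% of all genes. Ripk3, the kinase of necroptosis, was 3.27-fold higher (log2 fold change 1.71 ± 0.24 SE, adjusted p = 0.00011). Bcl2a1b and Bcl2a1d, near-identical survival genes of leukocytes whose reads may be shared, were 8.90-fold higher (log2 fold change 3.15 ± 0.32 SE, adjusted p = 1.8e-05) and 19.0-fold higher (log2 fold change 4.25 ± 0.57 SE, adjusted p = 9.8e-05). Bcl2 was 1.40-fold higher (log2 fold change 0.48 ± 0.17 SE, adjusted p = 0.036) and Mcl1 was not called (log2 fold change 0.09 ± 0.08 SE).

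Glucocorticoid and clock genes had negative medians and few calls. Of 18 glucocorticoid-responsive genes 6 fell and 2 rose by the adjusted p, with a median of -0.30 that was 0.04 on log2(TPM + 1). Among them 2 rose, Lcn2 and Mt2, and 1 fell, Pdk4, by 2-fold. The more specific Fkbp5 and Zbtb16 did not pass the test (log2 fold changes 0.14 ± 0.41 SE and -0.91 ± 0.43 SE). Zbtb16 passed at 2-fold without sham heart 1 (-1.17, adjusted p = 0.032) or sham heart 3 (-1.14, adjusted p = 0.048). None of 19 circadian genes passed 2-fold, 2 fell and none rose, with a median of -0.41 that was -0.06 on log2(TPM + 1). Arntl (BMAL1) varied within both groups, at 19.7, 11.2, 8.15 and 3.16 CPM in sham hearts and 2.83, 8.15, 3.01 and 9.08 CPM in day 1 AMI hearts. Per1 was not called (log2 fold change -0.66 ± 0.39 SE), but passed at 2-fold without day 1 AMI heart 2 (-1.12, adjusted p = 0.031). The hour at which hearts were taken is not given in the sources used here.

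Genes of the cell cycle rose from low levels. Of 34 DNA replication and G1/S genes 25 rose, 12 by 2-fold, and none fell, with a median of 0.73. Uhrf1, which copies DNA methylation at the fork, stood at 1.62, 2.10, 1.60 and 0.669 CPM in sham hearts and 12.4, 9.49, 12.1 and 8.92 CPM in day 1 AMI hearts and was 7.09-fold higher (log2 fold change 2.83 ± 0.26 SE, adjusted p = 8.2e-06). Cdc6 and Mcm10, which load and start replication, were 5.54-fold higher (log2 fold change 2.47 ± 0.24 SE, adjusted p = 1.5e-05) and 5.05-fold higher (log2 fold change 2.34 ± 0.32 SE, adjusted p = 0.00011), and the helicase gene Mcm2 was 1.65-fold higher (log2 fold change 0.72 ± 0.11 SE, adjusted p = 0.00018). Of 30 mitosis genes 20 rose and 2 fell by the adjusted p, and 13 rose by 2-fold. The 2-fold count was 23 without sham heart 1, 23 on library totals and 4 on log2(TPM + 1), where folds of low genes are understated. That heart was the highest sham heart for Mki67, the proliferation marker, at 9.55, 4.03, 2.96 and 3.06 CPM in sham hearts and 9.10, 7.94, 10.3 and 7.82 CPM in day 1 AMI hearts. Mki67 was 1.81-fold higher (log2 fold change 0.85 ± 0.28 SE, adjusted p = 0.026) with overlap, and passed 2-fold without sham heart 1 (1.38). Top2a, the topoisomerase of dividing cells, read 4.02, 1.44, 1.07 and 0.765 CPM in sham hearts and 6.35, 7.19, 8.24 and 7.57 CPM in day 1 AMI hearts and was 4.11-fold higher (log2 fold change 2.04 ± 0.33 SE, adjusted p = 0.00034), also high in sham heart 1. Cdk1, Ccna2 and Nuf2, the mitotic kinase, its cyclin and a kinetochore protein, were 3.88-fold higher (log2 fold change 1.96 ± 0.23 SE, adjusted p = 4.1e-05), 3.67-fold higher (log2 fold change 1.88 ± 0.34 SE, adjusted p = 0.00066) and 4.43-fold higher (log2 fold change 2.15 ± 0.51 SE, adjusted p = 0.0041). The E2F site TTTCGCGC was present in 5 of 27 G1/S promoters (18.5%, against 0.542% of tested genes). All 5 of those genes rose, as did 25 of the 34 in the list, and a link of the site to the rise was not tested. The cell cycle homology region TTTGAA was in 9 of 25 mitosis promoters (36.0%, against 12.96%). Of those 9 genes 6 rose, 3 of them by 2-fold, against 20 and 13 of the 30 in the list, and a link was not tested.

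Growth factors of injured epithelium and muscle rose in part. Of 24 tested, 4 rose by 2-fold (16.7%, against 7.79% of all genes). By the adjusted p 9 rose (37.5%) and 3 fell (12.5%), the latter by less than 2-fold. Of all genes 22.0% rose and 19.9% fell. Hbegf, a membrane-bound ligand of the EGF receptor, stood at 17.0, 17.8, 15.9 and 17.4 CPM in sham hearts and 104, 147, 96.0 and 34.1 CPM in day 1 AMI hearts and was 5.59-fold higher (log2 fold change 2.48 ± 0.30 SE, adjusted p = 5.6e-05). Ereg, another ligand, read 0, 0, 0 and 0.0478 CPM in sham hearts and 1.76, 4.36, 1.67 and 0.631 CPM in day 1 AMI hearts, with 1 sham count against 263 and a ratio of 183 (95% counting interval, 32.6 to 7272). Met, the receptor of hepatocyte growth factor, was 2.70-fold higher (log2 fold change 1.44 ± 0.20 SE, adjusted p = 0.00011). Igfbp3 was 2.30-fold higher (log2 fold change 1.20 ± 0.28 SE, adjusted p = 0.0039) with overlap, and without day 1 AMI heart 2 its log2 fold change was 0.91.

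Cytokines of the gp130 family rose together with receptors, 10 of 22 genes by 2-fold, and 3 fell by less than that. Il6, the founding member, stood at 0.157, 0.0821, 0 and 0.0478 CPM in sham hearts and 1.95, 1.64, 0.785 and 0.883 CPM in day 1 AMI hearts and was 17.4-fold higher (log2 fold change 4.12 ± 0.53 SE, adjusted p = 7.7e-05), from 6 sham counts. Osm and its receptor gene Osmr, a pair linked to cardiomyocyte dedifferentiation, were 9.15-fold higher (log2 fold change 3.19 ± 0.38 SE, adjusted p = 5e-05) and 2.17-fold higher (log2 fold change 1.12 ± 0.22 SE, adjusted p = 0.0012). The log2 fold change of Osmr was 0.95 without sham heart 3 and 0.99 without sham heart 4. Lif was 5.83-fold higher (log2 fold change 2.54 ± 0.55 SE, adjusted p = 0.0023). Il11, a cytokine of fibroblasts, read 0.0522, 0, 0.0485 and 0 CPM in sham hearts and 2.56, 3.25, 0.589 and 0.851 CPM in day 1 AMI hearts, with 2 sham counts against 221 and a ratio of 77.1 (95% counting interval, 21.1 to 640). Hearts 1 and 2 were again above hearts 3 and 4.

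Acute-phase proteins, known from liver, rose by 2-fold in 8 of 16 genes, 5 without day 1 AMI heart 2, and 2 fell by less than that. Lcn2, an iron-binding protein of innate immunity, stood at 9.70, 15.1, 2.72 and 7.08 CPM in sham hearts and 102, 161, 122 and 132 CPM in day 1 AMI hearts and was 14.8-fold higher (log2 fold change 3.89 ± 0.46 SE, adjusted p = 4.4e-05). Ptx3, a soluble pattern receptor, read 1.04, 1.31, 0.825 and 0.908 CPM in sham hearts and 6.58, 11.2, 5.23 and 6.46 CPM in day 1 AMI hearts and was 7.14-fold higher (log2 fold change 2.83 ± 0.25 SE, adjusted p = 8.2e-06). Hp, which binds haemoglobin, was 4.84-fold higher (log2 fold change 2.27 ± 0.60 SE, adjusted p = 0.0076). Serpina3n, a protease inhibitor, divided the sham group, at 74.8, 96.5, 5.77 and 9.09 CPM in sham hearts and 131, 238, 144 and 208 CPM in day 1 AMI hearts. It was 3.87-fold higher (log2 fold change 1.95 ± 0.63 SE, adjusted p = 0.023), and the adjusted p was 0.055 without day 1 AMI heart 2. Saa3 was 13.4-fold higher (log2 fold change 3.75 ± 1.24 SE, adjusted p = 0.026), with adjusted p of 0.064, 0.067 and 0.060 without sham heart 3, sham heart 4 and day 1 AMI heart 2. Sham hearts 1 and 2 were the higher sham hearts for both genes, as they were for the neutrophil genes S100a8 (10.3, 21.2, 0.776 and 0.335 CPM in sham hearts and 16.4, 36.2, 8.90 and 15.3 CPM in day 1 AMI hearts) and S100a9. Neither neutrophil gene passed the test (adjusted p = 0.31 and 0.29).

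Genes of clotting and of clot removal rose by 2-fold in 11 of 24 cases, and 3 fell by less than that. Plaur, the urokinase receptor that localises plasmin, read 1.20, 3.04, 1.504 and 1.10 CPM in sham hearts and 22.1, 23.4, 12.8 and 8.86 CPM in day 1 AMI hearts and was 9.63-fold higher (log2 fold change 3.27 ± 0.44 SE, adjusted p = 9.3e-05). F10 and F7, clotting factors, were 15.9-fold higher (log2 fold change 4.00 ± 0.68 SE, adjusted p = 0.00046) and 14.3-fold higher (log2 fold change 3.83 ± 0.69 SE, adjusted p = 0.00067). The AP-1 site TGANTCA was present in 6 of 15 promoters of the list (40.0%, against 5.71% of tested genes). Of those 6 genes 4 rose by 2-fold, Plaur among them, against 11 of 24 in the list, and a link of the site to the rise was not tested. The same site was in 1 of 15 matricellular promoters and 1 of 22 of immediate early and AP-1 genes. Heart 4 was the lowest day 1 AMI heart for 10 of the 11 genes that rose by 2-fold, against 51.4% of all such genes.

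In the TGF-beta, activin and BMP axis 9 of 27 genes rose and 1 fell by 2-fold. Inhba, which forms activin A, stood at 1.77, 1.40, 1.79 and 1.48 CPM in sham hearts and 14.7, 20.02, 13.2 and 7.28 CPM in day 1 AMI hearts and was 8.57-fold higher (log2 fold change 3.10 ± 0.46 SE, adjusted p = 0.00018). Inhbb was 2.89-fold higher (log2 fold change 1.53 ± 0.45 SE, adjusted p = 0.015), with an adjusted p of 0.063 without day 1 AMI heart 2. Tgfb1 was 1.96-fold higher (log2 fold change 0.97 ± 0.17 SE, adjusted p = 0.00047). Bmp10, an atrial ligand, was 11.3-fold lower (log2 fold change -3.50 ± 1.19 SE, adjusted p = 0.03), but its level was 2.66, 9.28, 0.0970 and 66.3 CPM in sham hearts and 0.115, 4.54, 1.93 and 0.189 CPM in day 1 AMI hearts, and without sham heart 4 the adjusted p was 0.37. Without day 1 AMI heart 1, 3 or 4 it was 0.075, 0.062 and 0.066. Targets of YAP and SRF, factors that respond to stretch and to actin, rose by 2-fold in 8 of 24 cases. Ctgf stood at 41.7, 42.1, 71.3 and 132 CPM in sham hearts and 463, 623, 484 and 162 CPM in day 1 AMI hearts and was 6.04-fold higher (log2 fold change 2.60 ± 0.43 SE, adjusted p = 0.00041). Cyr61 was 2.21-fold higher (log2 fold change 1.15 ± 0.31 SE, adjusted p = 0.0097) with overlap, and its log2 fold change was 0.96 without sham heart 2 and 0.98 without day 1 AMI heart 1. Actb, cytoplasmic actin, was 2.63-fold higher (log2 fold change 1.40 ± 0.20 SE, adjusted p = 0.00016) at 264, 321, 276 and 194 CPM in sham hearts and 754, 864, 638 and 519 CPM in day 1 AMI hearts. Cnn1, a calponin, was 4.21-fold higher (log2 fold change 2.07 ± 0.55 SE, adjusted p = 0.0085) with overlap.

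Cytoskeletal tubulins, a family described whole after its values were seen, rose as well. Of 13 tested alpha- and beta-tubulin genes 8 rose by 2-fold and none fell. Tubb6 stood at 25.6, 41.7, 35.2 and 29.3 CPM in sham hearts and 162, 178, 135 and 78.4 CPM in day 1 AMI hearts and was 4.20-fold higher (log2 fold change 2.07 ± 0.25 SE, adjusted p = 5.4e-05). Tuba1b was 3.00-fold higher (log2 fold change 1.59 ± 0.14 SE, adjusted p = 8.2e-06), while Tuba8 and Tuba4a, of adult muscle and platelets, were not called (log2 fold changes -0.26 ± 0.17 SE and -0.14 ± 0.13 SE). Of 16 ankyrin and SOCS box genes, ubiquitin ligase adaptors that were also picked after their values were seen, 10 fell, 4 of them by 2-fold, and 1 rose. Asb16 was 4.40-fold lower (log2 fold change -2.14 ± 0.26 SE, adjusted p = 5.3e-05) and Asb14 2.92-fold lower (log2 fold change -1.55 ± 0.21 SE, adjusted p = 9.5e-05).

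Genes of the provisional matrix rose, several of them from low levels. Of 24 matricellular genes 14 rose by 2-fold and 1 fell by less than that, with a median of 1.35. Tnc, the tenascin of injured borders, stood at 0.522, 0.863, 1.21 and 0.622 CPM in sham hearts and 84.1, 123, 87.4 and 60.1 CPM in day 1 AMI hearts and was 109-fold higher (log2 fold change 6.77 ± 0.63 SE, adjusted p = 9.6e-06). Spp1 (osteopontin), made by macrophages and stroma, read 0.522, 0.821, 0.291 and 0.191 CPM in sham hearts and 104, 165, 89.1 and 108 CPM in day 1 AMI hearts and was 246-fold higher (log2 fold change 7.95 ± 0.64 SE, adjusted p = 4.1e-06). Thbs1, which activates latent TGF-beta, was 7.26-fold higher (log2 fold change 2.86 ± 0.58 SE, adjusted p = 0.0015), and Lgals3, a lectin of macrophages, was 11.03-fold higher (log2 fold change 3.46 ± 0.25 SE, adjusted p = 1.9e-06). Cthrc1, a marker of activated fibroblasts, was 18.1-fold higher (log2 fold change 4.18 ± 0.58 SE, adjusted p = 0.00011), from 12 sham counts. Postn (periostin) was 3.40-fold higher (log2 fold change 1.76 ± 0.17 SE, adjusted p = 1.1e-05) at 24.1, 23.7, 28.5 and 26.8 CPM in sham hearts and 78.5, 118, 79.4 and 73.5 CPM in day 1 AMI hearts. Every day 1 AMI heart lay above every sham heart in these genes, several of which were named for their large changes.

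Collagen genes were already higher. Of 21 chains 9 rose and 2 fell by 2-fold, the latter being the basement membrane chains Col4a3 and Col4a4 (log2 fold changes -1.11 ± 0.35 SE and -1.001 ± 0.22 SE). Col1a1 stood at 133, 152, 145 and 110.0 CPM in sham hearts and 308, 409, 297 and 427 CPM in day 1 AMI hearts and was 2.67-fold higher (log2 fold change 1.42 ± 0.29 SE, adjusted p = 0.0015), and Col3a1 was 2.98-fold higher (log2 fold change 1.57 ± 0.19 SE, adjusted p = 4.4e-05) at 327, 244, 294 and 195 CPM in sham hearts and 658, 872, 634 and 993 CPM in day 1 AMI hearts. Day 1 AMI heart 4 was the highest of its group for both. Col12a1, Col6a3 and Col8a1 were 4.33-fold higher (log2 fold change 2.11 ± 0.44 SE, adjusted p = 0.0019), 3.08-fold higher (log2 fold change 1.62 ± 0.16 SE, adjusted p = 1.2e-05) and 2.92-fold higher (log2 fold change 1.54 ± 0.25 SE, adjusted p = 0.00031). Among proteases, inhibitors and crosslinkers 13 of 28 rose and 1 fell by 2-fold, Timp4 (log2 fold change -1.33 ± 0.32 SE). Timp1, the inhibitor of matrix metalloproteinases, stood at 2.66, 5.42, 1.94 and 1.53 CPM in sham hearts and 91.7, 149, 81.7 and 79.4 CPM in day 1 AMI hearts and was 34.1-fold higher (log2 fold change 5.09 ± 0.44 SE, adjusted p = 6.4e-06). Adam8, Adam12 and Adamts4 were 29.9-fold higher (log2 fold change 4.90 ± 0.51 SE, adjusted p = 2.1e-05), 23.1-fold higher (log2 fold change 4.53 ± 0.44 SE, adjusted p = 1.2e-05) and 16.4-fold higher (log2 fold change 4.03 ± 0.72 SE, adjusted p = 0.00067). Lox read 8.81, 9.04, 4.95 and 6.41 CPM in sham hearts and 22.3, 52.5, 20.1 and 26.8 CPM in day 1 AMI hearts, with heart 2 the highest.

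Identity genes of fibroblasts moved in both directions, at shares near those of all genes. Of 24 genes 7 rose (29.2%) and 7 fell (29.2%), against 22.0% and 19.9% of all genes. On library totals 9 rose and 4 fell. By 2-fold 1 rose (4.17%), against 7.79% of all genes. Pdgfra, the fibroblast receptor, was 1.45-fold higher (log2 fold change 0.53 ± 0.09 SE, adjusted p = 0.00049), and Tcf21, a factor of resting fibroblasts, was not called (log2 fold change -0.02 ± 0.15 SE). Meox1, a factor of activated fibroblasts, stood at 8.03, 10.9, 9.46 and 7.27 CPM in sham hearts and 23.3, 30.7, 19.9 and 12.8 CPM in day 1 AMI hearts and was 2.43-fold higher (log2 fold change 1.28 ± 0.21 SE, adjusted p = 0.00035).

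Endothelial genes were divided by role. Of 27 identity genes 9 fell and 1 rose, against 4 and 5 on library totals, with a median of -0.26 that was 0.11 on log2(TPM + 1). Pecam1 and Cdh5, junction proteins, were not called (log2 fold changes -0.14 ± 0.07 SE and -0.20 ± 0.10 SE). Car4, of capillaries, was 2.17-fold lower (log2 fold change -1.12 ± 0.26 SE, adjusted p = 0.004), with -0.96 without day 1 AMI heart 1, -0.83 on library totals and -0.80 on log2(TPM + 1). In contrast 10 of 22 genes of endothelial activation and leukocyte adhesion rose by 2-fold. Sele and Selp, the selectins on which leukocytes roll, stood at 0.782, 2.46, 1.84 and 0.813 CPM in sham hearts and 8.72, 6.98, 7.10 and 3.25 CPM in day 1 AMI hearts for Sele and were 4.33-fold higher (log2 fold change 2.12 ± 0.35 SE, adjusted p = 0.00035) and 5.15-fold higher (log2 fold change 2.36 ± 0.44 SE, adjusted p = 0.00083). Ptgs2 (COX-2) was 8.01-fold higher (log2 fold change 3.00 ± 0.49 SE, adjusted p = 0.00035). Pdpn (podoplanin) read 5.06, 4.68, 4.07 and 3.30 CPM in sham hearts and 35.0, 37.5, 27.4 and 21.7 CPM in day 1 AMI hearts and was 7.09-fold higher (log2 fold change 2.83 ± 0.19 SE, adjusted p = 9.4e-07).

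In mural cells Rgs5, the pericyte marker, was 1.79-fold lower (log2 fold change -0.84 ± 0.12 SE, adjusted p = 0.00016) at 509.5, 427, 530.5 and 579.9 CPM in sham hearts and 272, 254, 307 and 311 CPM in day 1 AMI hearts, and Acta2 was not called (log2 fold change 0.14 ± 0.36 SE). Mcam was 2.18-fold higher (log2 fold change 1.12 ± 0.20 SE, adjusted p = 0.00057). Of 18 genes 5 rose (27.8%) and 6 fell (33.3%), against 22.0% and 19.9% of all genes. On library totals 7 rose and 2 fell. The epicardial list gave 10 higher and 2 lower of 22 by 2-fold, the latter being Upk3b and Muc16 (log2 fold change of Muc16 -2.10 ± 0.59 SE). Aldh1a2, the retinoic acid enzyme of activated epicardium, stood at 9.18, 7.43, 4.22 and 2.92 CPM in sham hearts and 43.1, 50.7, 35.8 and 36.2 CPM in day 1 AMI hearts and was 6.97-fold higher (log2 fold change 2.80 ± 0.27 SE, adjusted p = 1.2e-05). The keratins Krt8 and Krt18 were 5.24-fold higher (log2 fold change 2.39 ± 0.54 SE, adjusted p = 0.0029) and 4.71-fold higher (log2 fold change 2.23 ± 0.27 SE, adjusted p = 5e-05), and heart 1 was the highest of the day 1 AMI group for both. Upk3b, a mesothelial surface gene, was 2.83-fold lower (log2 fold change -1.502 ± 0.35 SE, adjusted p = 0.0037) at 6.31, 9.32, 4.32 and 6.41 CPM in sham hearts and 4.44, 2.12, 2.00 and 0.883 CPM in day 1 AMI hearts, with overlap, and Wt1 was not called (log2 fold change -0.08 ± 0.23 SE). Of 14 Schwann, neuron and adipocyte genes only Dbh, of sympathetic nerves, passed 2-fold, and was 2.43-fold lower (log2 fold change -1.28 ± 0.33 SE, adjusted p = 0.0067). Sham heart 4 was high for Dbh, which had a log2 fold change of -0.87 without it. Adipoq, of adipocytes, was not called (log2 fold change -0.68 ± 0.70 SE).

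Leukocyte genes rose, and those of recruited monocytes and macrophages had the highest median of the 58 lists. All 24 of 24 genes of monocytes and recruited macrophages rose by 2-fold, with a median of 3.05, while 1 of 20 resident macrophage genes did, with a median of 0.35. By the adjusted p 7 of the 20 resident genes rose and 0 fell. Their summed TPM was 394, 558, 348 and 327 in sham hearts and 604, 727, 530 and 704 in day 1 AMI hearts, with overlap. These lists were written with earlier results of these data known, and members such as Spp1 are also made by stroma. The counts are therefore a description and not a test. Ccr2, the receptor that brings monocytes from blood, stood at 4.43, 3.08, 1.698 and 2.92 CPM in sham hearts and 30.3, 43.8, 25.4 and 34.0 CPM in day 1 AMI hearts and was 11.03-fold higher (log2 fold change 3.46 ± 0.32 SE, adjusted p = 8.2e-06). Ly6c2, of inflammatory monocytes, was 9.89-fold higher (log2 fold change 3.31 ± 0.56 SE, adjusted p = 0.00046). Trem1, which amplifies myeloid signals, was 27.6-fold higher (log2 fold change 4.79 ± 0.86 SE, adjusted p = 0.00066), from 9 counts in 1 sham heart. Lyve1 and Timd4, of resident macrophages, were not called (log2 fold changes 0.18 ± 0.18 SE and -0.38 ± 0.25 SE), and Siglec1 was 2.12-fold higher (log2 fold change 1.08 ± 0.25 SE, adjusted p = 0.0033). The log2 fold change of Siglec1 was 0.95, 0.94 and 0.90 without sham heart 3, sham heart 4 and day 1 AMI heart 2. Ptprc (CD45), the pan-leukocyte marker, stood at 12.4, 10.4, 7.18 and 8.03 CPM in sham hearts and 28.8, 32.2, 24.1 and 27.2 CPM in day 1 AMI hearts and was 2.96-fold higher (log2 fold change 1.56 ± 0.20 SE, adjusted p = 7.6e-05). Cytip, Itgb2 and Coro1a, also common to leukocytes, were 4.80-fold higher (log2 fold change 2.26 ± 0.24 SE, adjusted p = 2.3e-05), 4.48-fold higher (log2 fold change 2.16 ± 0.27 SE, adjusted p = 6.6e-05) and 4.18-fold higher (log2 fold change 2.06 ± 0.23 SE, adjusted p = 3.2e-05).

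The summed TPM of the recruited macrophage list was 69.3, 88.3, 51.2 and 51.9 in sham hearts and 660, 1002, 482 and 580 in day 1 AMI hearts. These genes were highest in day 1 AMI heart 2 for 22 of 24. Heart 2 was also the highest for 8 of the 11 stress genes and 13 of the 14 immediate early genes that rose by 2-fold. It was the highest for 68.7% of all 1192 genes that did so, a share near that of the stress genes. The part of leukocyte RNA in those rises was not tested. Antigen presentation rose by 2-fold in 6 of 22 genes, with Itgax (CD11c) 9.69-fold higher (log2 fold change 3.28 ± 0.28 SE, adjusted p = 6.1e-06), Ciita, the master factor of class II, 2.68-fold higher (log2 fold change 1.42 ± 0.34 SE, adjusted p = 0.0046) and H2-DMb1 2.64-fold higher (log2 fold change 1.40 ± 0.32 SE, adjusted p = 0.0031). The class II chains H2-Aa and H2-Ab1 were not called (log2 fold changes 0.34 ± 0.30 SE and 0.59 ± 0.29 SE). Lymphocyte genes were near the floor. Of 19, 5 rose by 2-fold, Cd3e, Trbc2, Lck, Gzma and Gzmb. The count was 2 without sham heart 2 or 4 or day 1 AMI heart 1, 3 without sham heart 1 or day 1 AMI heart 3, and 9 without day 1 AMI heart 4. Cd3e was 3.29-fold higher (log2 fold change 1.72 ± 0.62 SE, adjusted p = 0.038), from 9 sham counts and 43 in day 1 AMI, and its adjusted p rose to between 0.055 and 0.11 without sham heart 2, 3 or 4 or day 1 AMI heart 1 or 3. Of 29 interferon-stimulated genes 5 rose by 2-fold (17.2%, against 7.79% of all genes), 9 without sham heart 2 and 3 without day 1 AMI heart 2. By the adjusted p 13 rose (44.8%) and 1 fell (3.45%), against 22.0% and 19.9% of all genes. Cxcl10, a chemokine for T cells, was 6.15-fold higher (log2 fold change 2.62 ± 0.45 SE, adjusted p = 0.00048), and Mx1 was 3.11-fold higher (log2 fold change 1.64 ± 0.37 SE, adjusted p = 0.0029). Oas1a and Oasl1 were the others (log2 fold changes 1.11 ± 0.25 SE and 1.29 ± 0.24 SE). Zbp1 was 3.10-fold higher (log2 fold change 1.63 ± 0.50 SE, adjusted p = 0.018), with an adjusted p between 0.051 and 0.059 without sham heart 3 or 4 or day 1 AMI heart 2. Ifit1 was 1.57-fold higher (log2 fold change 0.65 ± 0.21 SE, adjusted p = 0.021), and Isg15 was not called (log2 fold change 0.47 ± 0.43 SE), but passed at 2-fold without sham heart 2 (1.39, adjusted p = 0.0014). Pf4, of platelets and some macrophages, was 2.34-fold higher (log2 fold change 1.22 ± 0.17 SE, adjusted p = 0.00011), and Cpa3, of mast cells, was not called (log2 fold change 0.09 ± 0.44 SE).

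Neutrophil genes were uneven. Of 14 tested 7 rose and 1 fell by 2-fold, and the median of 2.10 was 3.21 without sham heart 2. Il1r2, the decoy receptor, was 47.6-fold higher (log2 fold change 5.57 ± 0.76 SE, adjusted p = 0.00011). Ngp, of marrow-stage granules, was found at 1.36, 3.00, 0 and 0.0478 CPM in sham hearts and 0, 0, 0 and 0.0631 CPM in day 1 AMI hearts, 100 sham counts against 2, a day 1 AMI to sham ratio of 0.0140 (95% counting interval, 0.0017 to 0.0517). Without sham heart 1 the adjusted p of Ngp was 0.063 and without sham heart 2 it was 0.14. Leaving out any single day 1 AMI heart gave 0.076 to 0.088.

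**Figure D4:**
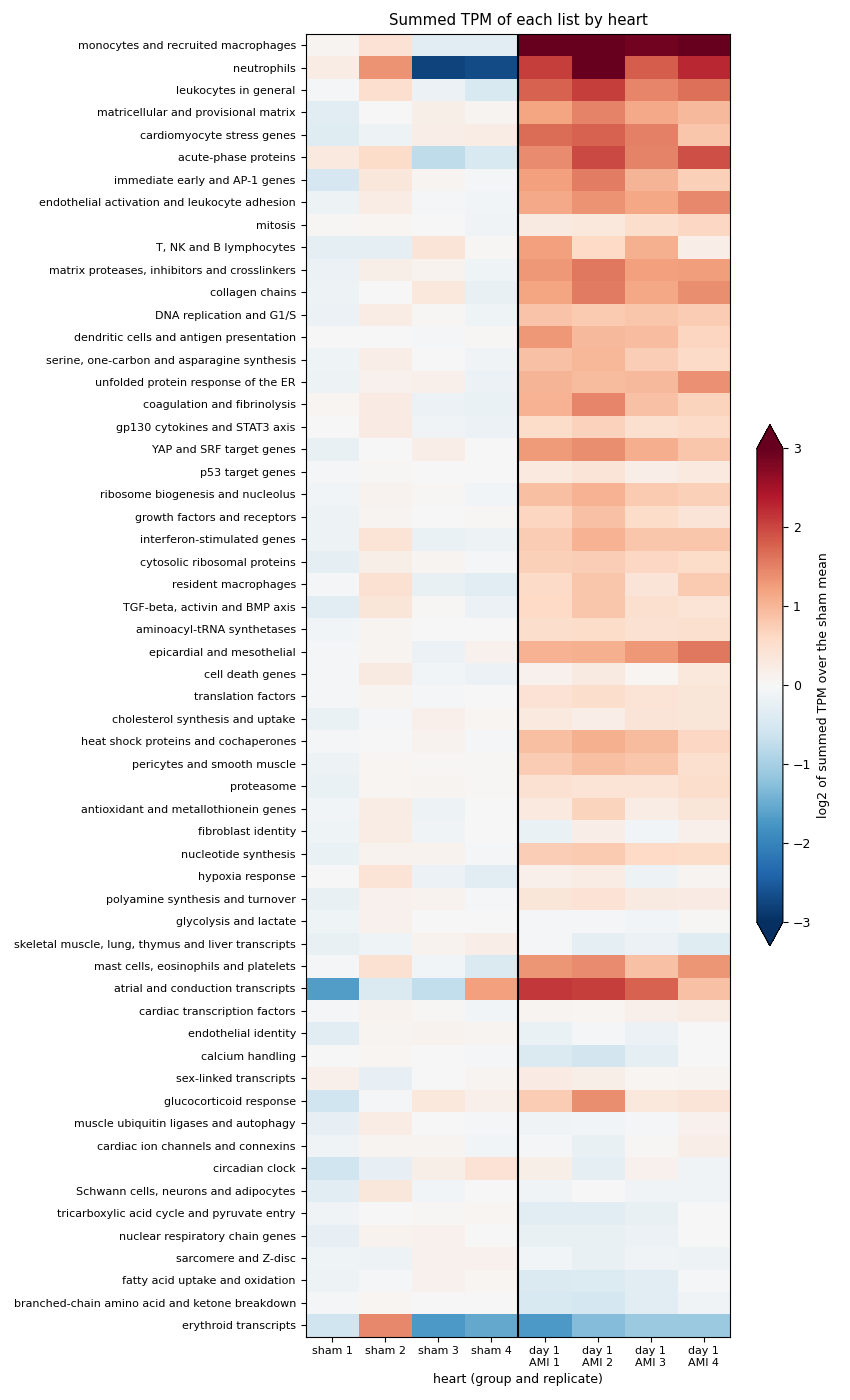
Summed TPM of each list (rows) in each heart (columns), as log2 of its ratio to the sham mean, with red above and blue below and colours cut at 3. Recruited macrophage genes are high in all 4 day 1 AMI hearts, cardiomyocyte stress genes are lower in day 1 AMI heart 4 than in the other 3, the ER response is highest there, and sham heart 2 stands apart in the erythroid row.

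The checks of sample make-up touched some of these results. Of 12 erythroid genes 5 fell by 2-fold, and sham heart 2 was the highest heart for those named here. The list median of -1.51 was -0.45 without sham heart 2 and -0.50 on log2(TPM + 1). The 2-fold count was 0 without sham heart 2, 10 without sham heart 3, 9 without sham heart 4, and 1, 2 and 3 without day 1 AMI hearts 1, 2 and 3. Hba-a1, alpha globin, stood at 461, 1736, 202 and 227 CPM in sham hearts and 152, 198, 232 and 191 CPM in day 1 AMI hearts. It was 3.40-fold lower (log2 fold change -1.76 ± 0.57 SE, adjusted p = 0.023), and without sham heart 2 its log2 fold change was -0.62 (adjusted p = 0.17). The adjusted p was 0.063 without day 1 AMI heart 1 and 0.051 without heart 2. Hba-a2, which shares nearly all its sequence with Hba-a1, Slc4a1 and Alas2 were 3.01-fold lower (log2 fold change -1.59 ± 0.56 SE, adjusted p = 0.033), 10.2-fold lower (log2 fold change -3.36 ± 0.97 SE, adjusted p = 0.013) and 3.92-fold lower (log2 fold change -1.97 ± 0.71 SE, adjusted p = 0.039). Without sham heart 2 the adjusted p of Hba-a2, Slc4a1 and Alas2 was 0.35, 0.16 and 0.32. Leaving out any 1 of the day 1 AMI hearts also took the adjusted p of Hba-a2 and Alas2 above 0.05, as did leaving out sham heart 1 for Alas2. Hbb-bs did not pass the test (adjusted p = 0.061), but did without sham heart 3 (0.024) or sham heart 4 (0.032). The platelet gene Gp1bb had the same pattern, at 1.67, 4.31, 0.873 and 0.430 CPM in sham hearts and 0.879, 0.298, 0.327 and 0.221 CPM in day 1 AMI hearts, and was 4.36-fold lower (log2 fold change -2.12 ± 0.62 SE, adjusted p = 0.014), with an adjusted p of 0.084 without sham heart 2.

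Atrial genes differed between hearts of 1 group. Sln and Myl7 stood at 6.94, 12.5, 4.12 and 43.8 CPM in sham hearts and 17.4, 12.9, 14.2 and 11.2 CPM in day 1 AMI hearts for Sln and 12.2, 32.04, 10.7 and 86.8 CPM in sham hearts and 57.6, 41.2, 46.0 and 31.9 CPM in day 1 AMI hearts for Myl7, and neither passed the test (adjusted p = 0.71 and 0.65). Without sham heart 4 the log2 fold change of Myl7 was 1.26 (adjusted p = 0.027). Sham heart 4 was the highest heart for both, for Bmp10 and, within sham, for Nppa. The Y-linked Ddx3y was present in all 8 hearts, at 95.9, 73.7, 78.6 and 86.3 CPM in sham hearts and 66.1, 69.8, 67.7 and 71.2 CPM in day 1 AMI hearts. It was 1.22-fold lower (log2 fold change -0.28 ± 0.09 SE, adjusted p = 0.025), a fall that turned to a log2 fold change of 0.09 on log2(TPM + 1). Of 5 tested genes of skeletal muscle, lung, thymus and liver 1 rose by 2-fold, Tnnt3, a fast troponin (log2 fold change 1.78 ± 0.40 SE), and 11 of the 16 listed were too low to test.

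The 10 protein-coding genes with the largest rises were Arg1, Sprr1a, Spp1, Cxcl3, Ereg, Ankrd2, Tnc, Slco4a1, Amer2 and Il11. Cxcl3, a chemokine, was at 0.104, 0, 0 and 0 CPM in sham hearts and 6.81, 8.59, 1.41 and 1.01 CPM in day 1 AMI hearts, 2 sham counts against 541 and a ratio of 189 (95% counting interval, 52.0 to 1562). Slco4a1, an organic anion carrier, and Amer2 each had 1 sham count, against 162 and 134, with ratios of 113 (19.99 to 4490) and 93.5 (16.5 to 3718). The 10 largest falls were Gm30302, Cngb3, Kcnv2, Armc2, Snai3, Chrna2, Nrg2, Acot3, Inmt and Ucp3. Cngb3, a cyclic nucleotide-gated channel subunit, stood at 9.13, 4.68, 5.58 and 9.09 CPM in sham hearts and 0.268, 0.298, 0.458 and 1.17 CPM in day 1 AMI hearts and was 12.7-fold lower (log2 fold change -3.67 ± 0.43 SE, adjusted p = 4.2e-05). Armc2 read 35.7, 44.6, 33.6 and 28.9 CPM in sham hearts and 5.43, 2.51, 9.42 and 7.50 CPM in day 1 AMI hearts and was 5.75-fold lower (log2 fold change -2.52 ± 0.29 SE, adjusted p = 4.1e-05). Snai3 and Chrna2 were 5.42-fold lower (log2 fold change -2.44 ± 0.48 SE, adjusted p = 0.0012) and 5.05-fold lower (log2 fold change -2.34 ± 0.40 SE, adjusted p = 0.00047). Inmt, a methyltransferase, was 4.50-fold lower (log2 fold change -2.17 ± 0.29 SE, adjusted p = 9.5e-05) and Acot3, a peroxisomal acyl-CoA thioesterase, 4.57-fold lower (log2 fold change -2.19 ± 0.36 SE, adjusted p = 0.00037). Nrg2, a neuregulin, was 4.69-fold lower (log2 fold change -2.23 ± 0.28 SE, adjusted p = 6e-05). Gm30302 was 17.4-fold lower (log2 fold change -4.12 ± 0.69 SE, adjusted p = 0.0004), from 103 sham counts to 8.

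Calls were also counted by class of gene. Of 13813 protein-coding genes 1114 rose (8.06%) and 325 fell (2.35%) by 2-fold, while of 360 lincRNA genes 20 rose (5.56%) and 47 fell (13.1%). Of 352 antisense genes 9 rose and 32 fell (9.09%), but the strand counted is not stated, so reads of an antisense gene and its partner cannot be told apart. The difference between the classes was not tested. The lincRNA that fell from the highest level, chosen after its values were seen, was Gm36827, at 26.1, 25.6, 17.2 and 11.9 CPM in sham hearts and 4.25, 3.37, 6.15 and 5.08 CPM in day 1 AMI hearts, which was 4.28-fold lower (log2 fold change -2.10 ± 0.27 SE, adjusted p = 6.9e-05). Above a mean of 1000 CPM over both groups, the median log2 fold change was -0.47 over 99 genes, against 0.03 between 1 and 10 CPM over 4265 genes.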

How the data were processed

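Whole-heart RNA of 12 mice was sequenced as paired 150-base reads from random-primed cDNA. The authors deposited gene counts and TPM (normalised for transcript length and depth), aligned to mm10 with CASAVA 1.8, STAR 2.4.0j and RSEM named in the labels. The counter and strand are not given in the sources used here. The day 7 hearts entered the filter on low counts, the scaling and the estimate of spread, but not the contrast. With the 8 compared libraries alone, 14646 genes were tested, and 1079 were higher and 407 lower by 2-fold. The neutrophil list median was then 2.98, against 2.10 in the main fit. That of the lymphocyte list was 0.34, against 0.96.

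Counts were scaled by TMM and filtered with filterByExpr, and all 12 libraries were fitted together with edgeR 4.0.16 (quasi-likelihood, two-sided) in R 4.3.3, with the Benjamini-Hochberg adjustment over 15306 genes. A gene passed at 2-fold and an adjusted p below 0.05. Standard errors came from the F statistic. Counting intervals (95%, exact binomial) cover counting error only, with 3 counts as the limit of detection. DESeq2 1.42.0 and limma 3.58.1 on log2(TPM + 1) and log2(TPM + 0.1) were alternatives, with other scalings and filters and each heart left out. On simulated data with 200 genes of 15306 changed by 2 on the log2 scale, edgeR and DESeq2 recovered 200 and limma 196. The changed genes were well counted, equal numbers of them rose and fell, and all genes had the same spread. Far more genes moved in the real hearts, so the recovery checks the code and does not bear on the shift with scaling.

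In all, 58 lists held 1307 genes, of which 1245 were tested and 300 passed at 2-fold, out of 1648 that did so in all. Members, lists and tests were chosen with earlier results of these data known. Genes named were 1 or 2 set members of each list, up to 3 others with the largest change by 2-fold at a mean of 1 CPM or more, and the 10 largest rises and 10 largest falls among protein-coding genes without overlap. Postn, Pdia6, Herpud1, the tubulin and ankyrin and SOCS box genes, Gm36827, and those named to complete a count of 5 or fewer were picked after their values were seen. Same-numbered sham and day 1 AMI hearts deviated together in 2 of 4 pairs, and the numbers were not taken to pair them. Some genes that this rule names are not reported here.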

Additional observations from a re-analysis of the deposited data

Results flagged for a closer look

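Single hearts that lay far from the rest of their group, by Dixon's test at 95%, were found in 42 of 456 groups of 4 hearts (9.21%). The nominal rate of about 1 in 20 holds for independent, normally spread values. These are mostly CPM of named genes that share the same hearts. Groups at 0 in every heart except the flagged one, such as Arg1 in sham, are always flagged. The share is therefore not compared with chance. Values are TMM-scaled CPM.

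Sham heart 2 was the highest sham heart for Hba-a1 (1736) and Hba-a2 (111.0), for Fos (5.87), Mthfd2 (3.98), Car9 (0.287), Thbs1 (17.0), Adam8 (2.10), Ly6c2 (0.945), Trem1 (0.370), Isg15 (16.5) and Hand2 (68.7). It was the lowest for Myh6 (32760) and Chrna2 (2.34).

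Sham heart 4 was the highest for Bmp10 (66.3), Dbh (4.97), Per1 (99.5), Mcl1 (271.0), Timd4 (3.40), Inmt (14.4) and, at 1 count, Ereg (0.0478) and Slco4a1 (0.0478). Sham heart 1 was the highest for Mki67 (9.55), H2-DMb1 (3.44) and Cxcl3 (0.104). Sham heart 3 was the highest for Hspb1 (314), Adam12 (1.41) and, at 1 count, Arg1 (0.0485) and Amer2 (0.0485).

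Among day 1 AMI hearts, heart 1 stood out for Krt8 (6.88), Cpa3 (1.11) and Gp1bb (0.879), heart 2 for Per1 (72.7), Siglec1 (23.7), Isg15 (12.9) and Zbp1 (9.94), and heart 3 for Amer2 (0.523). Heart 4 was the highest for Manf (121.0), Mlycd (104.9) and Ngp (0.0631) and the lowest for Wt1 (2.96), H2-Aa (33.3) and the mitochondrial share of counts (12.1%).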

How the results depend on the processing

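Of 160 named genes past 2-fold, 109 stayed past it under every alternative. The balance of rises and falls moved with the processing, and of the fits below only that on library totals changes scaling alone. The 456 genes lower by 2-fold became 217 on library totals, 63 on log2(TPM + 1) and 145 on log2(TPM + 0.1). By the adjusted p alone, higher genes became 6289, 6171 and 6391, and lower genes 1061, 737 and 762. Leaving out 1 heart gave 980 to 1322 higher and 360 to 549 lower by 2-fold. On log2(TPM + 1) and log2(TPM + 0.1) the log2 fold change of Ryr2 turned to 0.0165 and 0.0166 and that of Ddx3y to 0.0867 and 0.0902, and the cause was not tested. Same-numbered hearts correlated at -0.07, 0.23, 0.12 and 0.01, so the numbers were not taken to pair them, and with a replicate block 1180 genes were higher and 441 lower. Genes under about 1 CPM rest on few counts.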
